A study of Oryctolagus cuniculus with 2 samples.

Results

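Cluster 16 is a small group of retinal nuclei that the authors' table labels as rods and that came almost wholly from the knockout library. It was taken as all nuclei whose deposited cell type was Rods and whose deposited cluster number was 16, which gave 78 of 6542 nuclei. The clusters were made by the authors from the same counts that are described here, and the cluster was singled out for its library makeup. Every value below is therefore a description and none is a test.

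The series is single-nucleus RNA sequencing of rabbit retina. One library came from wild-type rabbits and the other from rabbits with a knockout of CLRN1, the gene of clarin-1, which is mutated in a form of Usher syndrome, an inherited loss of hearing and vision. All animals were 10 months old, and the way the knockout was made was not given in the sources used here. From each animal a 5 mm punch of the visual streak, a band of dense retina 2 to 3 mm ventral of the medullary rays, was snap-frozen, and nuclei of 3 animals per genotype were mixed at equal concentration, with a target of 10000 nuclei, into 1 droplet library with 10x Genomics 3' chemistry. The labels say that nuclei were traced back to animals with Vireo, but that assignment was not used here, so each genotype is 1 library without a replicate.

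Rods are the photoreceptors of dim light and by far the most numerous cells of most mammalian retinas. Müller glia span the retina and support its neurons, and microglia are its resident immune cells. A module score of the kind deposited here is the mean log-normalised level of a short gene list in a nucleus, less the mean level of control genes of like abundance.

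The wild-type library held 3484 nuclei and 6916018 unique molecular identifiers (UMIs, each 1 counted transcript), and the knockout library held 3058 nuclei and 8233524 UMIs. The median nucleus had 1175.5 and 1552.5 UMIs, in that order. Matrix columns carry numbers only and were tied to nuclei by position: the total and the number of detected genes agreed in 6542 of 6542 columns. In addition, 10 rows summed exactly to the mitochondrial UMIs of every nucleus. Matrix rows also carry numbers only, and the files do not pair them with gene names, so CLRN1 itself was not read out. For each of the 9 deposited scores the rows behind it were instead solved from the counts, as a list of 2 to 7 rows and its control rows. By their weight the control rows numbered 200 to 684 per score. List and control rows together, with fitted weights, gave back the deposited score in all 6542 nuclei to within 1e-09. The 2 to 7 rows of each list, without the control rows, are called the rod list, the Müller list and so on. Of the 5 barcodes that both libraries share, 0 were members of cluster 16. No doublet caller was run.

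Cluster 16 held 2 of 3484 wild-type nuclei (0.0574%, interval 0.00695 to 0.207%) and 76 of 3058 knockout nuclei (2.49%, 1.96 to 3.10%). Intervals of shares, levels and ratios of levels are exact 95% intervals, binomial, Poisson and conditional in that order, and cover counting error only. That of a median is a 95% interval from the ranked values of the nuclei, which are not replicates. A limit given beside a count of 0 is the level that 3 counts would give, which is slightly under the exact upper bound. Among rod-labelled nuclei alone the shares were 0.0894% (0.0108 to 0.323%) and 3.69% (2.92 to 4.60%). Knockout nuclei made up 97.4% (91.0 to 99.7%) of the cluster. The next most one-sided of the 26 clusters was cluster 14, labelled as ganglion cells, at 75.7%, and the other 24 clusters lay between 29.2% and 66.7%. Because there is 1 library per genotype, a difference between genotypes and one between these 2 libraries or among the pooled animals cannot be told apart.

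**Figure D1:**
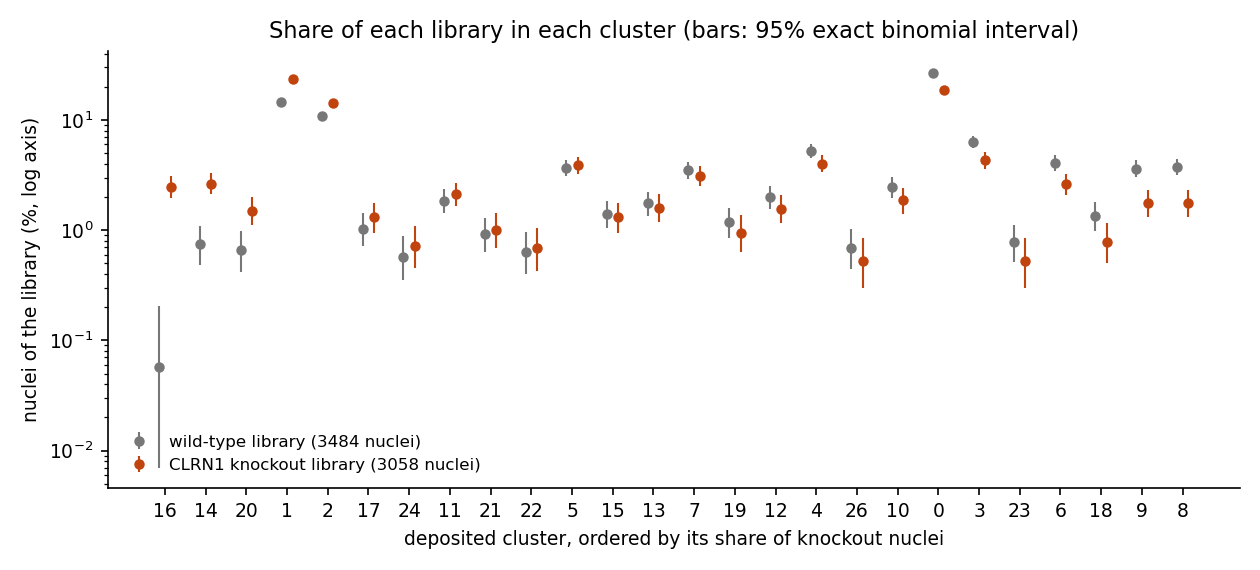
Share of the wild-type (grey) and knockout (orange) library in each deposited cluster, in percent of the library's nuclei on a log axis, with 95% exact binomial intervals. Clusters are ordered by their share of knockout nuclei, and in cluster 16, at the left, the shares are 0.0574% and 2.49%.

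In the authors' 2-dimensional embedding the 78 nuclei did not form 1 group. Joining nuclei up to 1 unit apart gave islands of 46, 20 and 11 nuclei and 1 lone nucleus, which are called islands A, B and C and the lone nucleus. The gap from an island to the nearest other member outside it was 1.18 units for A and B, 1.80 for C and 2.45 for the lone nucleus. The islands were compact, with a median distance to the island's centre of 0.118 in A, 0.061 in B and 0.023 in C. The largest island held 59.0% of cluster 16, the lowest share of the 26 clusters under this rule, followed by 79.8% in cluster 5. Both wild-type members lay in island B, so islands A and C and the lone nucleus held knockout nuclei alone. At a joining distance of 2, the largest group held 77 of the 78 nuclei, so the split depends on that distance.

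**Figure D2:**
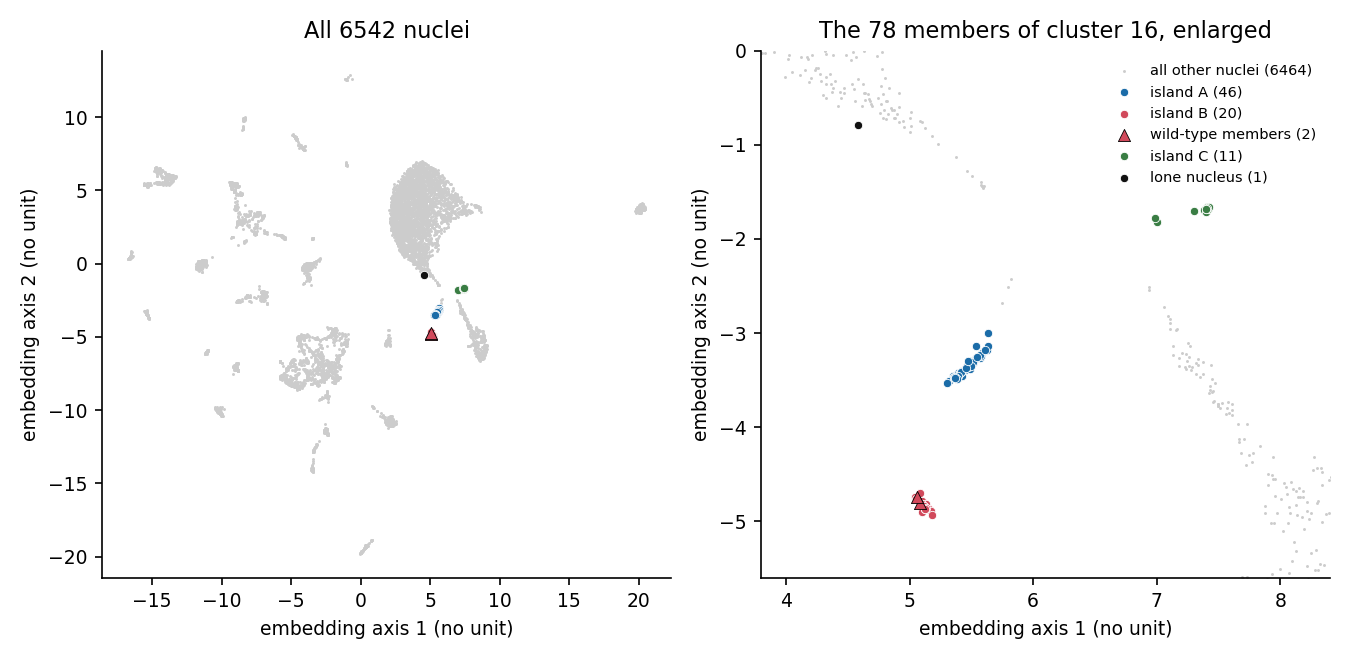
The authors' embedding of all 6542 nuclei (left) and the region of cluster 16 enlarged (right); axes have no unit. The members fall into islands of 46 (blue), 20 (red) and 11 (green) nuclei and 1 lone nucleus (black), and the 2 wild-type members (triangles) both lie in island B.

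The islands were also apart in the counts, but the authors' embedding comes from these same counts, so this is no separate support. Island A alone held 46 of the 78 members. For 76 of 78 members (97.4%, 91.0 to 99.7%) the fellow member with the most similar log-normalised counts, by cosine similarity, lay in the same island. Against all 6542 nuclei, the 10 most similar nuclei of a member held a median of 6 other members (range 0 to 10). In island A, 378 of 460 such neighbours were of island A, and 18 of 460 (3.91%) were wild-type. In island B, 74 of 200 were of island B, 124 were from the rod clusters 0 to 3, and 57 (28.5%) were wild-type. In island C, 41 of 110 were of island C and 66 were from clusters 0 to 3. No neighbour of any member was from the Müller cluster 8.

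The label was checked first with the rod list, since rods should carry it at a high level. Its 6 rows summed to 2495 CPM (2282 to 2723) in cluster 16, where CPM is the UMIs of the rows per 1000000 UMIs of the same nuclei. The 76 knockout members stood at 2448, against 16723 in knockout nuclei of the rod clusters 0, 1 and 3, which were 6.83-fold higher (6.25 to 7.48), and 13964 in those of rod cluster 2. Knockout amacrine nuclei, interneurons that should lack rod transcripts, stood at 1878, and the members were 1.30-fold higher (1.18 to 1.43) than these. Knockout Müller nuclei of cluster 8 stood at 6537. Over both libraries the rod-labelled clusters 9 and 10 stood at 3309 and 3397. Cluster 16 was thus the lowest of the 7 rod-labelled clusters, but only 1 of 3 that lay far below clusters 0 to 3.

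The rod list varied among the islands. Its level was 1958 CPM (1724 to 2216) in island A, 2838 (2379 to 3359) in island B and 3233 (2530 to 4072) in island C. In island B, 56 of its 135 rod-list UMIs came from 1 nucleus, and without that nucleus the level was 1824. The lone nucleus had 45 rod-list UMIs, or 12950 CPM, within the range of the rod clusters. Per nucleus the median was 4 rod-list UMIs in cluster 16 (range 1 to 56), 4 in knockout amacrine nuclei and 14 in knockout nuclei of clusters 0, 1 and 3, with median depths of 2303.5, 3217 and 865 UMIs. Spearman's rho between rod-list UMIs and total UMIs across nuclei was −0.19 over the 78 members, 0.11 over 469 knockout amacrine nuclei and 0.67 over 1435 knockout nuclei of clusters 0, 1 and 3. These nuclei share libraries, and the values are given without a test. In island A, 1 row supplied 71.0% (65.0 to 76.6%) of the rod-list UMIs, against 63.3% (61.6 to 65.0%) in knockout amacrine nuclei and 49.6% (49.0 to 50.2%) in knockout nuclei of clusters 0, 1 and 3. Whether free RNA supplied these UMIs was not tested.

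The deposited scores gave the same picture per nucleus. The median rod score was 0.04 in cluster 16 (range −0.69 to 2.03), 0.00 in island A, 0.14 in island B and 0.01 in island C, against 1.37 in clusters 0, 1 and 3 and 0.87 in cluster 2, but −0.02 in cluster 9 and 0.15 in cluster 10. The rod score was the highest of the 9 scores in 27 of 78 members (34.6%), against 91.8% of nuclei in clusters 0, 1 and 3, 77.1% in cluster 2, 32.2% in cluster 9 and 39.9% in cluster 10. Elsewhere in cluster 16 the highest score was that of Müller glia in 19 nuclei, of ganglion cells in 16 and of microglia in 8. A score whose list has no UMI in a nucleus lies at 0 or below. The microglia score lay at −0.0312 or above in all members, so it can be the highest without such a UMI. Of those 8 nuclei, 5 had a UMI of the microglia list, while all 27, 19 and 16 had a UMI of their list. In island A the leading scores were rods in 17, Müller glia in 13 and ganglion cells in 11 of 46 nuclei. In island B they were rods in 6, Müller glia in 5 and microglia in 5 of 20 (a further 2 had the microglia score highest without a UMI of its list), and in island C ganglion cells in 5 and rods in 3 of 11. Over all 78 members the rod score lay above 0 in 42 (53.8%), and it was the highest more often than any other score. It was still not the highest in most members, and the nuclei are called by their cluster number here.

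The microglia list set island B apart from islands A and C, but not from the lone nucleus. All 7 of its rows had UMIs there, 28 in total and in 11 of 20 nuclei (55.0%, 31.5 to 76.9%), or 589 CPM (391 to 851). All nuclei outside cluster 16 together stood at 2.88 CPM (2.08 to 3.87), so island B was 205-fold higher (122 to 337), and 0.619% of those nuclei had such a UMI. Island A had 0 microglia UMIs among 128686, which allows up to 23.3 CPM, and Müller cluster 8 had 0 among 442537. Island C had 1 UMI among 22268, and the lone nucleus had 3 among 3475, with a microglia score of 0.565. Of the 11 nuclei of island B with a microglia UMI, 10 also had a UMI of the Müller list. Whether such nuclei are doublets was not tested.

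The Müller list, whose own cluster 8 stood at 3613 CPM, was 357 (262 to 477) in island A, 904 (654 to 1218) in island B and 44.9 (1.14 to 250) in island C, against 365 in all nuclei outside cluster 16. Cluster 8 was 10.1-fold (7.54 to 13.9) above island A and 4.0-fold (2.95 to 5.55) above island B. The UMIs sat in few of the 5 rows. In island A, 32 of 46 came from 1 row, in island B, 23 of 43 came from that same row and 16 from another, and 1 row of the list was at 0 in all 78 members.

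The ganglion cell list had a like pattern in islands A and C. One row supplied 56 of 62 UMIs in island A and 20 of 20 in island C. Its level was 435 CPM (329 to 565) in island A and 898 (549 to 1387) in island C, against 842 in the ganglion cell cluster 7 and 8.22 in clusters 0, 1 and 3. Island B had 0 UMIs of the whole list among 47569, which allows up to 63.1 CPM. The other 6 rows together had 6 UMIs in island A and 0 in island C. Over the whole list cluster 7 was 3.90-fold (3.04 to 5.11) above island A and 2.09-fold (1.35 to 3.43) above island C.

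Of the remaining lists, the bipolar cell list was at 391 CPM in cluster 16, the 17th from the lowest of 26 clusters. One row of the bipolar cell list supplied 44 of 45 UMIs in island A and 26 of 26 in island B, at 342 and 547 CPM, against 624 in clusters 0, 1 and 3, while island C had 0. The amacrine and horizontal cell lists had 2 UMIs each in all 78 members, or 9.90 CPM (1.20 to 35.8). Cluster 16 was the lowest of the 26 clusters for both, but the ranks rest on these 2 UMIs. The next lowest stood at 45.0 CPM (34.9 to 57.2) for the amacrine list and at 10.8 (2.22 to 31.4) for the horizontal cell list. The cone list had 9 UMIs, or 44.6 CPM (20.4 to 84.6), against 192 in clusters 0, 1 and 3. The general photoreceptor list stood at 84.2 CPM (49.0 to 135), against 618 in clusters 0, 1 and 3 and 83.8 in amacrine nuclei.

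**Figure D3:**
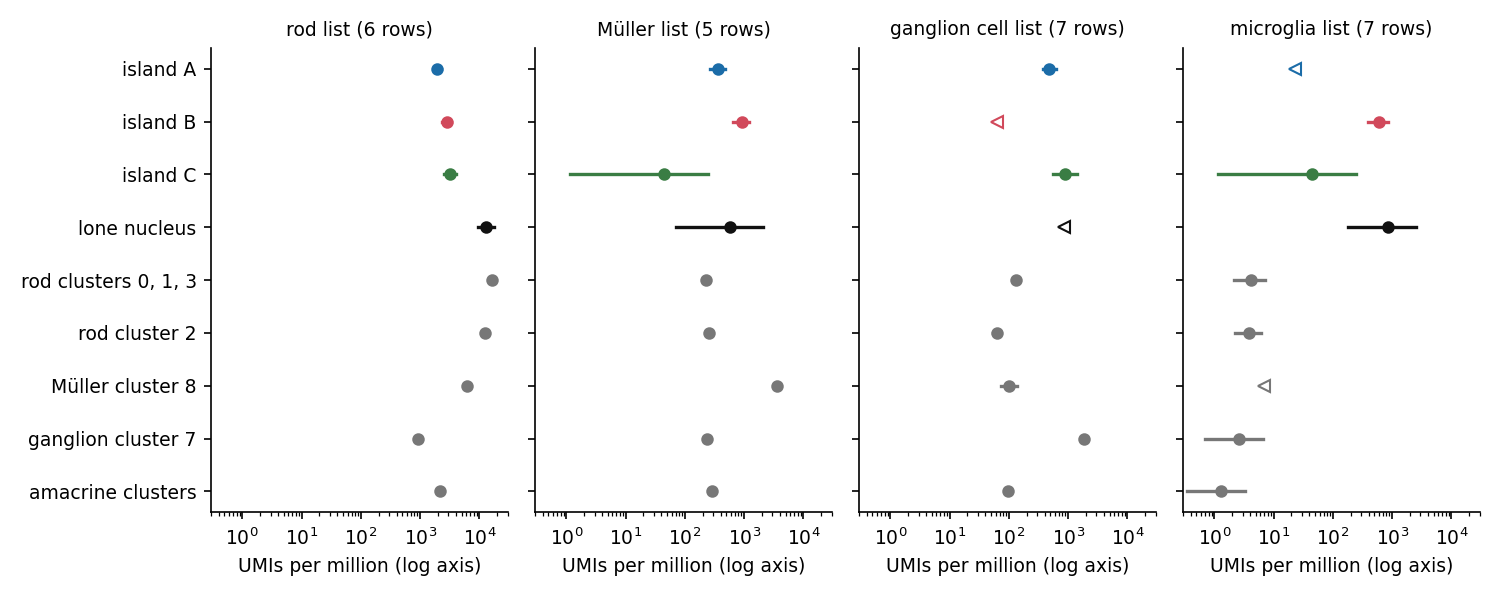
Summed level of the rod, Müller, ganglion cell and microglia lists, in CPM on a log axis, in the islands of cluster 16 and in other deposited clusters of both libraries. Bars are 95% exact Poisson intervals, and open triangles mark a count of 0 at the level that 3 counts would give. The microglia list is at 589 in island B and at 0 in island A.

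The nearest deposited cluster was found for each member as the cluster, other than 16, whose summed counts gave that nucleus the highest multinomial likelihood. It was Müller cluster 8 for 63 of 78 members (80.8%, 70.3 to 88.8%) and a rod-labelled cluster for 9 (11.5%, 5.41 to 20.8%). In 5 others it was ganglion cell cluster 7 and in 1 horizontal cell cluster 19. By island, cluster 8 was nearest for 40 of 46 nuclei in A, 15 of 20 in B and 8 of 11 in C, and the lone nucleus was nearest to rod cluster 0. With all cluster sums thinned to 83684 UMIs, cluster 8 was nearest for 53 of 78 members, but for 3 of 11 in island C, where amacrine cluster 5 took 5. By cosine similarity island B turned to rods, with 15 of 20 nuclei nearest to a rod-labelled cluster.

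Being nearest is relative to what is left. When other clusters were left out in turn, nuclei of rod clusters 0, 1 and 3 went to a rod-labelled cluster in 99.9%, 100% and 81.8% of cases, and those of clusters 10, 9 and 2 in 84.6%, 54.4% and 13.3%. Nuclei of ganglion cluster 7 went to amacrine cluster 5 in 99.5% of cases, which shows that the rule gives a nearest cluster to any nucleus. The summed log2 profile of cluster 16 correlated best with cluster 8 over 10386 rows with at least 50 UMIs (Pearson's r = 0.664), then with rod cluster 2 (0.633) and rod cluster 3 (0.615). Of the 26 clusters only cluster 14 had a lower best partner, at 0.555, and the other 24 had 0.755 to 0.973. These correlations are across genes of 2 sums, are lower for shallow sums and carry no test. For the islands the best partner was cluster 8 for A (0.636), rod cluster 0 for B (0.587) and rod cluster 2 for C (0.511), while by Spearman's rho it was cluster 8 for C (0.539). Between islands r was 0.552 for A and B, 0.543 for A and C and 0.503 for B and C. With every sum thinned to 22268 UMIs, the UMIs of island C, A and B had 0.440, A and C 0.482 and B and C 0.476, and the best partner among clusters was cluster 8 for A (0.440) and rod cluster 1 for B (0.446) and C (0.433), so the partner of B and C changed with depth.

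**Figure D4:**
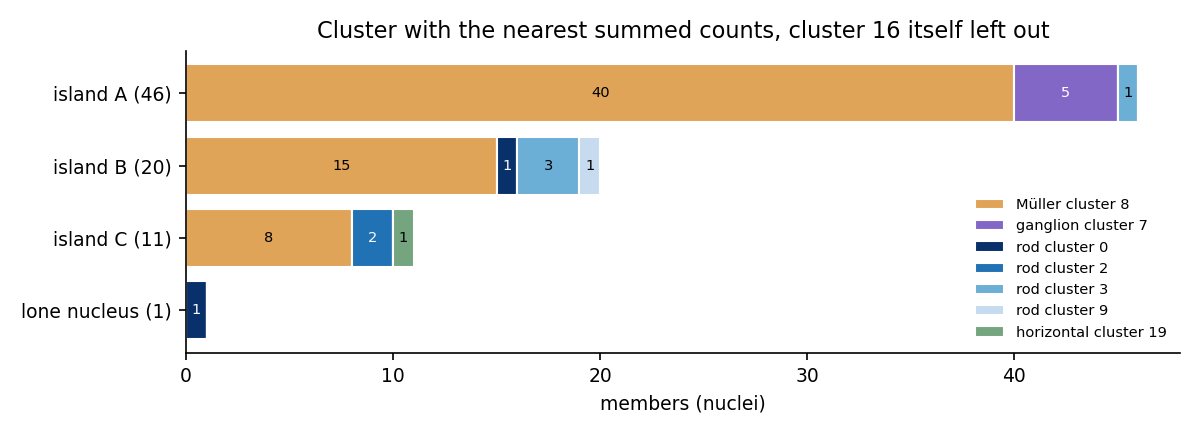
Number of members in each island by the deposited cluster whose summed counts lie nearest, cluster 16 itself left out. Müller cluster 8 is nearest for 40 of 46, 15 of 20 and 8 of 11 nuclei, although the Müller list itself was 10.1-fold lower in island A than in cluster 8.

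Each island had rows of its own. Rows with a UMI in at least 50% of an island's nuclei were ranked by their ratio to all nuclei outside cluster 16, and the top 10 are called its leading rows. They were chosen for this difference, so the following values only describe it. Together they held 22015 CPM in island A against 57.8 outside, 8724 in island B against 5.35, and 14864 in island C against 4.15. For island A, 1 row supplied 1889 of the 2833 UMIs in the island and 591 of the 864 UMIs outside. The median leading row was seen in 68.5% of nuclei of island A, 65.0% of island B and 77.3% of island C, and in 0.255%, 0.0851% and 0.0619% of nuclei outside. For scale, of 1397 rows with enough UMIs to compare, 157 (11.2%) were over 4-fold higher in island A than outside and 228 (16.3%) over 4-fold lower. For island B these were 71 (18.4%) and 86 (22.3%) of 386, and for island C 26 (31.7%) and 27 (32.9%) of 82.

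The 3 sets of leading rows differed in most rows but were not separate. Islands A and B shared 0 of their 10 rows, A and C shared 1, and B and C shared 1. The sets were the top of 497, 382 and 392 rows past the 50% limit in A, B and C, so sets this small may share few rows. Of the leading rows of island A, 5 were at 0 in B and 6 in C, and of those of island B, 8 were at 0 in A and 6 in C. Of those of island C, 5 were at 0 in A and 5 in B. Islands A, B and C held 128686, 47569 and 22268 UMIs, and the share of all rows at 0 in each was not computed. Without that share, the counts of rows at 0 are no measure of how separate the islands are. The row that B and C shared was also seen in A, with 25, 66 and 13 UMIs in A, B and C against 3 in all 6464 other nuclei. As a set, the rows of island A stood at 5838 CPM in C, where all 11 nuclei had at least 1 of them, and at 462 in B, against 57.8 outside. The rows of island C stood at 738 CPM in A and 1745 in B, against 4.15 outside, and those of island B at 210 in A and 719 in C, against 5.35. Nuclei with 5 or more leading rows of their own island numbered 40 of 46 in A, 16 of 20 in B and 11 of 11 in C, and 0 nuclei of these islands had 5 or more rows of another. The share of a nucleus's UMIs in its own leading rows ran from 0.476 to 5.28% in A (median 1.85%), 0.177 to 1.44% in B (0.905%) and 0.740 to 1.98% in C (1.43%). The lone nucleus had 5 of the 10 rows of island B, 0 of A and 2 of C, beside its 45 rod-list UMIs.

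Müller cluster 8 is among the outside nuclei the leading rows were ranked against, so low levels there follow in part from that choice. The rows of island A stood at 104 CPM in cluster 8, above the 57.8 of all outside nuclei and 212-fold below island A (158 to 290). Of 1366 rows compared between island A and cluster 8, 142 (10.4%) were over 4-fold higher and 222 (16.3%) over 4-fold lower in island A. The leading rows of island B had 0 UMIs in cluster 8, which allows up to 6.78 CPM.

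**Figure D5:**
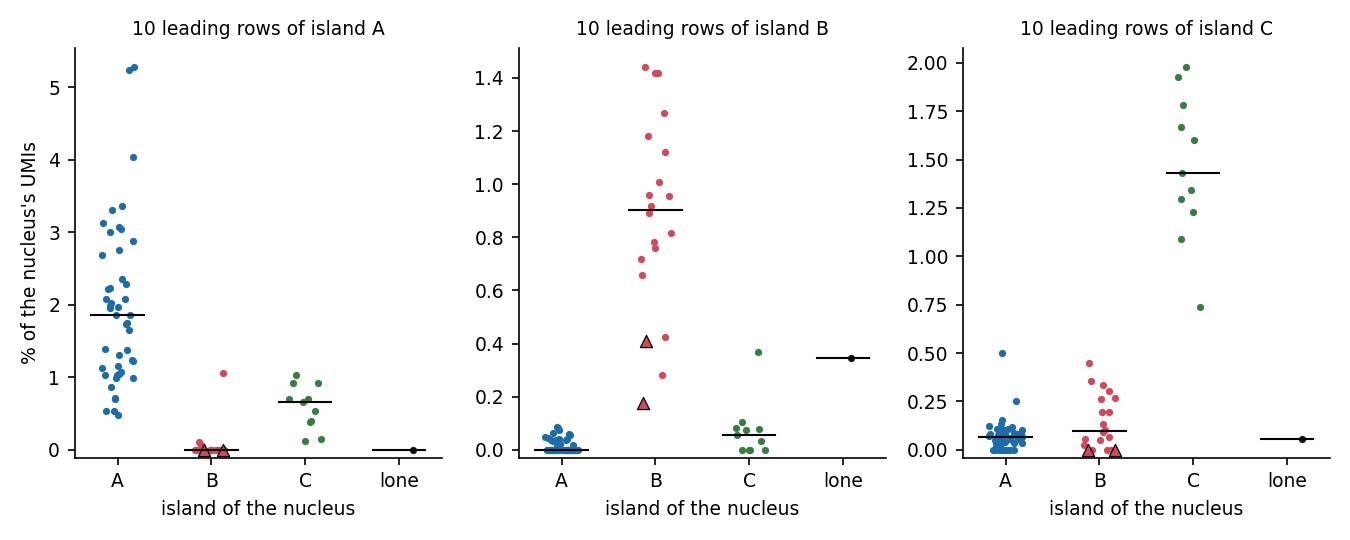
Share of each nucleus's UMIs in the 10 leading rows of island A (left), B (middle) and C (right), in percent; points are knockout members, triangles the 2 wild-type members and lines the island medians. Each set is high in the island it was chosen from, with medians of 1.85, 0.905 and 1.43%. In island A, 1 row supplied 1889 of the 2833 UMIs of its set.

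Against rod cluster 2, the rod-labelled cluster with the most similar profile, 252 of 2297 rows (11.0%) were over 4-fold higher in cluster 16 and 277 (12.1%) over 4-fold lower. Row 6798 had 166 UMIs in cluster 16 against 3 in cluster 2 (1221-fold, 411 to 5983), of which 64 lay in island A, 102 in island C and 0 in island B. Row 4214 had 145 against 1 (3201-fold, 565 to 127285), and all 145 lay in 34 nuclei of island A. Both rows had 0 UMIs in island B, which allows up to 63.1 CPM, against 497 CPM for row 6798 and 1127 for row 4214 in island A. The 2 wild-type members, with 1867 UMIs together, had 0 as well, but this allows up to 1607 CPM and cannot show that the rows were lacking. Row 2829 had 1 UMI in cluster 16 against 14835 in cluster 2 (672-fold lower, 121 to 26546), but at 4.95 CPM cluster 16 was like the rod-labelled clusters 10 (4.3), 9 (8.48), 1 (13.4) and 0 (16.9), and cluster 2 was the highest of all, at 3327. Row 6161 had 0 against 8988, which was 136-fold lower with 3 counts in place of 0 (exact lower bound 110-fold). Every other cluster carried it, at 20.2 to 10134 CPM, but rod clusters 0 and 1 stood at only 47.9 and 20.2. They had it in 2.13% and 2.20% of nuclei, and the 0 in cluster 16 allows up to 14.9 CPM.

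Rows were also found whose UMIs lay mostly in these few nuclei. The 78 members are 1.19% of all nuclei and held 1.33% of all UMIs. Of the 10386 rows with at least 50 UMIs, 43 had 50% or more of their UMIs in the members. The limit of 50 UMIs counts the members' own UMIs, so rows high in them can pass it through them alone. No such count was made for another cluster, so these counts only describe cluster 16. Of these 43 rows, 25 had most of their cluster 16 UMIs in island A, 12 in island B and 4 in island C. These islands held 128686, 47569 and 22268 of the 201998 UMIs of the cluster. At 75% or more there were 16 such rows.

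Outside cluster 16 the leading rows of island A were at 71.8 CPM in knockout and 41.5 in wild-type nuclei. The ratio of these rows was 1.73 (1.50 to 2.00), and 1.32 (1.13 to 1.54) without cluster 3. Within the rod clusters 0 to 3 they were at 97.0 and 26.3, a ratio of 3.69 (2.91 to 4.72), which fell to 2.60 (2.00 to 3.42) without cluster 3. In the same rod clusters the ratio was 3.61 (1.65 to 8.97) for the rows of island B and 2.56 (1.07 to 7.08) for those of island C, from 37 and 8 UMIs and from 23 and 7. These ratios depend on the rows taken: with 20 leading rows it was 1.20 (0.997 to 1.44) for island B, 2.65 (2.28 to 3.09) for A and 1.69 (1.03 to 2.83) for C. Without cluster 3 it was 2.59 (1.14 to 6.59) for B, and 1 nucleus held all 10 UMIs of these rows in cluster 3. The knockout library also held 97.4% of the cluster, and whether free RNA from it moved these levels was not tested. Single nuclei outside came close to the islands on part of this measure. In cluster 3 the highest share of UMIs in the rows of island A was 3.62%, above that island's median, and the highest share in the rows of island B was 1.46%, above the 1.44% of that island's highest nucleus, with at most 6 and 3 of the 10 rows seen. Past the lower quartile of an island in both its share of UMIs and its number of leading rows lay 0 of 3482 other wild-type and 0 of 2982 other knockout nuclei, for each of A, B and C, which allows up to 0.0862% and 0.101%. The same limits kept 28 of 46, 13 of 20 and 8 of 11 of the islands' own nuclei, and the rows had been chosen for being rare outside, so the count of 0 is no finding.

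The 2 wild-type members were shallow, with 735 and 1132 UMIs, and differed from each other. The first had 11 rod-list and 2 microglia-list UMIs and a rod score of 1.36. The second had 3 rod-list, 0 microglia-list and 4 Müller-list UMIs and a rod score of 0.64. Each had 2 of the 10 leading rows of island B, below the 4 to 9 of its 18 knockout nuclei, at depths under the island's median of 1763.5 UMIs.

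Depth and mitochondrial UMIs differed among the islands too. The median was 2303.5 UMIs per nucleus in cluster 16 (1888 to 2725, range 512 to 7214), with 2547 in island A, 1763.5 in B and 1740 in C, against 798 in rod clusters 0, 1 and 3 and 3968 in cluster 2. At 1000 UMIs per nucleus, members had a median of 633 detected genes over 69 nuclei (9 shallower ones were left out), against 686 over 870 nuclei in clusters 0, 1 and 3 and 668.5 over 156 in cluster 8. Without thinning the medians were 1192, 566 and 1137 genes. The median mitochondrial share was 0.089% in cluster 16, at 0.056% in island A, 0.200% in B and 0.148% in C. More than 1% was found in 14 of 78 members, 5 of 46 in A, 8 of 20 in B and 1 of 11 in C, against 225 of 3082 nuclei in clusters 0, 1 and 3. Of these 225 nuclei, 171 were among the 352 of rod cluster 3, whose median share was 0.970%. Clusters 0 and 1 had 47 of 1501 and 7 of 1229, so a high share was not particular to cluster 16 among rod-labelled clusters. The part of mitochondrial content in the makeup of island B was not tested.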

How the data were processed

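Members, lists and comparisons were chosen with earlier results of these data known. The authors deposited raw counts of UMIs as a matrix of 15806 numbered rows and 6542 columns, and a table of nuclei with the library, cluster, cell type, percent of mitochondrial UMIs and 9 module scores, per the file headers. OryCun2.0 is the build, and DESeq2 1.38.0, Seurat 4.3.0 and Cell Ranger 7.0 are tools, per the submitters' processing notes, which state no roles. Steps to filter nuclei or to remove doublets and free RNA were not given in the sources used here, and the shallowest nucleus had 499 UMIs.

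Score lists were solved by lasso and least squares. Cluster sums used raw counts with 0.5 added per row for the likelihood, and correlations used log2(CPM + 1). Ratios of levels have conditional exact intervals, and a count of 0 was set to 3 counts. Rows entered a fold comparison with at least 40 UMIs in the 2 sums together, scaled to the shallower one. Row numbers to print were those with the largest ratio to the nearest rod cluster among rows with at least 50 UMIs and 3 counts in place of fewer, at most 2 each way. Methods were tested on simulated data. Python 3.11.15, SciPy 1.17.1 and scikit-learn 1.9.0 were used. No test was run, since there is 1 library per genotype.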

Additional observations from a re-analysis of the deposited data

How the results depend on the processing

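The share of knockout nuclei in cluster 16 was 3.35% among nuclei with 1000 or more UMIs (wild-type 1 of 2001 nuclei) and 3.69% among rod-labelled nuclei, and at under 1% mitochondrial UMIs it was 2.21%, within the interval of the main value. The median rod score was −0.0295 over the 69 members with 1000 or more UMIs, a change of sign of a value near 0. At a joining distance of 2 the largest group held 77 nuclei, and at 0.5 it held 46. The share of members nearest to a rod-labelled cluster was 24.4% by cosine similarity, and 7.69 to 12.8% under the other 8 settings. The cause of these shifts was not tested. The remaining alternatives for these values, for the median depth and for the nearest fellow member stayed within the interval of the main value. Settings chosen after seeing the data were equal depth of the cluster sums, members with 1000 or more UMIs for the nearest cluster, leaving out the rod-list rows or the lone nucleus, and other leading rows, whose values stand beside the result. No paired analysis was possible because each genotype has 1 library, and leaving out a replicate was not possible for the same reason. Island C, with 22268 UMIs, has the least precise levels.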

Other observations

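Few nuclei of other clusters lay among the islands. Within 0.5 units of a member of A, B or C there were 4, all from the knockout library: 1 of Müller cluster 8 and 1 of rod cluster 3 near island A, and 1 of rod cluster 3 near each of B and C. The nucleus of cluster 3 near island A had 605 UMIs, a rod score of 1.33 and 6 of the 10 leading rows of that island, while the nucleus of cluster 8 lying 0.006 units from a member of island A had 1. The nuclei near B and C had 3 and 0 leading rows of the island they lay near, at 686 and 864 UMIs.

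The most abundant row of the matrix took 13.3% of all UMIs in island A and 9.94% in island C but 4.97% in island B and 2.68% in the lone nucleus, against 0.511 to 12.7% in the other 25 clusters, and its part in the levels in CPM given above was not tested.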
